A study of Mus musculus with 2 samples.

Results

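The mitochondrial ribosomal protein genes, whose symbols begin with Mrpl (large subunit) or Mrps (small subunit), were examined in the mouse plasmacytoma line X63/0 after cycloleucine and without it. Members were the features with an annotated transcript whose name starts with either prefix and a digit, with pseudogene names left out. They numbered 77 of 43346 features, 48 of them Mrpl and 29 Mrps genes, and 29646 of all features had an annotated transcript. The study made total RNA, depleted of ribosomal RNA, from X63/0 (X63-Ag8.653) cells kept 3 h in 30 mM cycloleucine and from untreated X63/0 cells. Cycloleucine is an amino acid analogue that blocks the synthesis of S-adenosylmethionine, the methyl donor of the cell. X63/0 is a single established line, derived from a mouse myeloma, and both cultures carried the same genotype as far as the labels say. Each group had 1 library, so no difference below has a replicate check, no test between the conditions was made, and each value describes these libraries.

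The mitochondrial ribosome translates the few proteins encoded by mitochondrial DNA, all of them subunits of the respiratory chain. Its ribosomal RNAs come from mitochondrial DNA, while its proteins are encoded in the nucleus, made in the cytosol and imported. Some of these proteins descend from the ribosome of the bacterial ancestor and others are found only in mitochondria. The large subunit joins amino acids and feeds the new chain into the inner membrane, and the small subunit reads the mRNA.

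The cycloleucine library held 31951946 reads in genes and the untreated library 27127865. A count of 0 allows up to 3 reads, which for 1 kb of exon is 0.0939 RPKM in the cycloleucine library and 0.111 RPKM in the untreated library. RPKM is exon reads scaled by exon length in kilobases and by the gene reads of the library. The label of a plasma cell line was set against 8 plasma cell markers, all of which passed the filter used below. The plasma cell gene Mzb1 had 401 and 398 RPKM, and the plasma cell transcription factor Xbp1 had 158 and 154 RPKM, in the cycloleucine and the untreated library. Of 5 T cell markers, 0 passed, with 24 exon reads in all in the cycloleucine library and 22 in the untreated library. Of 3 fibroblast markers, 0 passed, with 54 and 34 exon reads in the same order of libraries. Of 4 myeloid markers, 1 passed. Of 5 B cell markers, 3 passed, Cd74, Cd79b and Ms4a1. The 5 together had 3232 exon reads in the cycloleucine library and 2654 in the untreated library, so B cell genes were not absent as a set. The transcription factor gene Pax5, which did not pass, had 2 exon reads after cycloleucine and 0 untreated.

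All 77 mitochondrial ribosomal protein genes were measured. Each passed a filter of at least 1 RPKM in either library and at least 50 exon reads over both, which 9081 annotated genes passed. Their median level was 16.6 RPKM after cycloleucine and 16.8 RPKM without it, against 6.01 and 5.98 RPKM for all genes that passed. The large subunit genes had a median of 18.9 RPKM after cycloleucine and 20.2 RPKM untreated. The small subunit genes had a median of 13.4 RPKM after cycloleucine and 14 RPKM untreated. The order of the genes was nearly the same in both libraries (Spearman's rho of 0.99 over 77 genes, a description only).

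Although the proteins share 1 particle, their transcripts covered a wide range of levels. Above 100 RPKM were 3 genes, all of the large subunit. Mrpl12, which forms the stalk that recruits translation factors and in human cells also binds the mitochondrial RNA polymerase, had 109 RPKM after cycloleucine and 117 RPKM untreated. Mrpl34, a counterpart of bacterial L34, had 112 RPKM after cycloleucine and 113 RPKM untreated. Mrpl42, found only in mitochondrial ribosomes, had 115 RPKM after cycloleucine and 92.4 RPKM untreated, so that it led the members in the cycloleucine library and was the third in the untreated library. Below them in the large subunit, Mrpl22, a protein of the exit tunnel, had 52.5 RPKM after cycloleucine and 58.4 RPKM untreated. Mrpl20, a counterpart of bacterial L20, had 52.1 RPKM after cycloleucine and 46.7 RPKM untreated.

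The 2 highest small subunit genes lay below the 3 genes over 100 RPKM and above Mrpl22 and Mrpl20. Mrps16, a counterpart of bacterial S16, had 70.5 RPKM after cycloleucine and 76.2 RPKM untreated. Mrps24, the mitochondrial form of bacterial S3, had 63.3 RPKM after cycloleucine and 64.6 RPKM untreated. Mrps30, Mrps7 and Mrps15 followed, between 27.2 and 33.9 RPKM after cycloleucine and between 28.7 and 36.5 RPKM untreated.

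At the low end, 6 genes stayed under 5 RPKM in both libraries. Mrpl53, found only in mitochondria, was the lowest with 1.58 RPKM after cycloleucine and 2.26 RPKM untreated. Mrps10, a counterpart of bacterial S10, had 2.30 RPKM after cycloleucine and 3.03 RPKM untreated. The mitochondria-specific Mrpl48 had 2.94 RPKM after cycloleucine and 2.87 RPKM untreated. The others were Mrps25, Mrpl1 and Mrpl47, at 3.47, 4.01 and 4.37 RPKM after cycloleucine and 3.78, 3.85 and 4.17 RPKM untreated. Genes with longer exon models tended to have lower RPKM (rho of -0.58 over the 77 genes). That is a description, since exon length enters RPKM as its divisor. In the small subunit, Mrps34 and Mrps6 were also low, at 4.53 and 6.84 RPKM after cycloleucine and 5.13 and 8.09 RPKM untreated. The exon models had a median of 1722 bp, against 3673 bp for all genes that passed the filter.

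**Figure D1:**
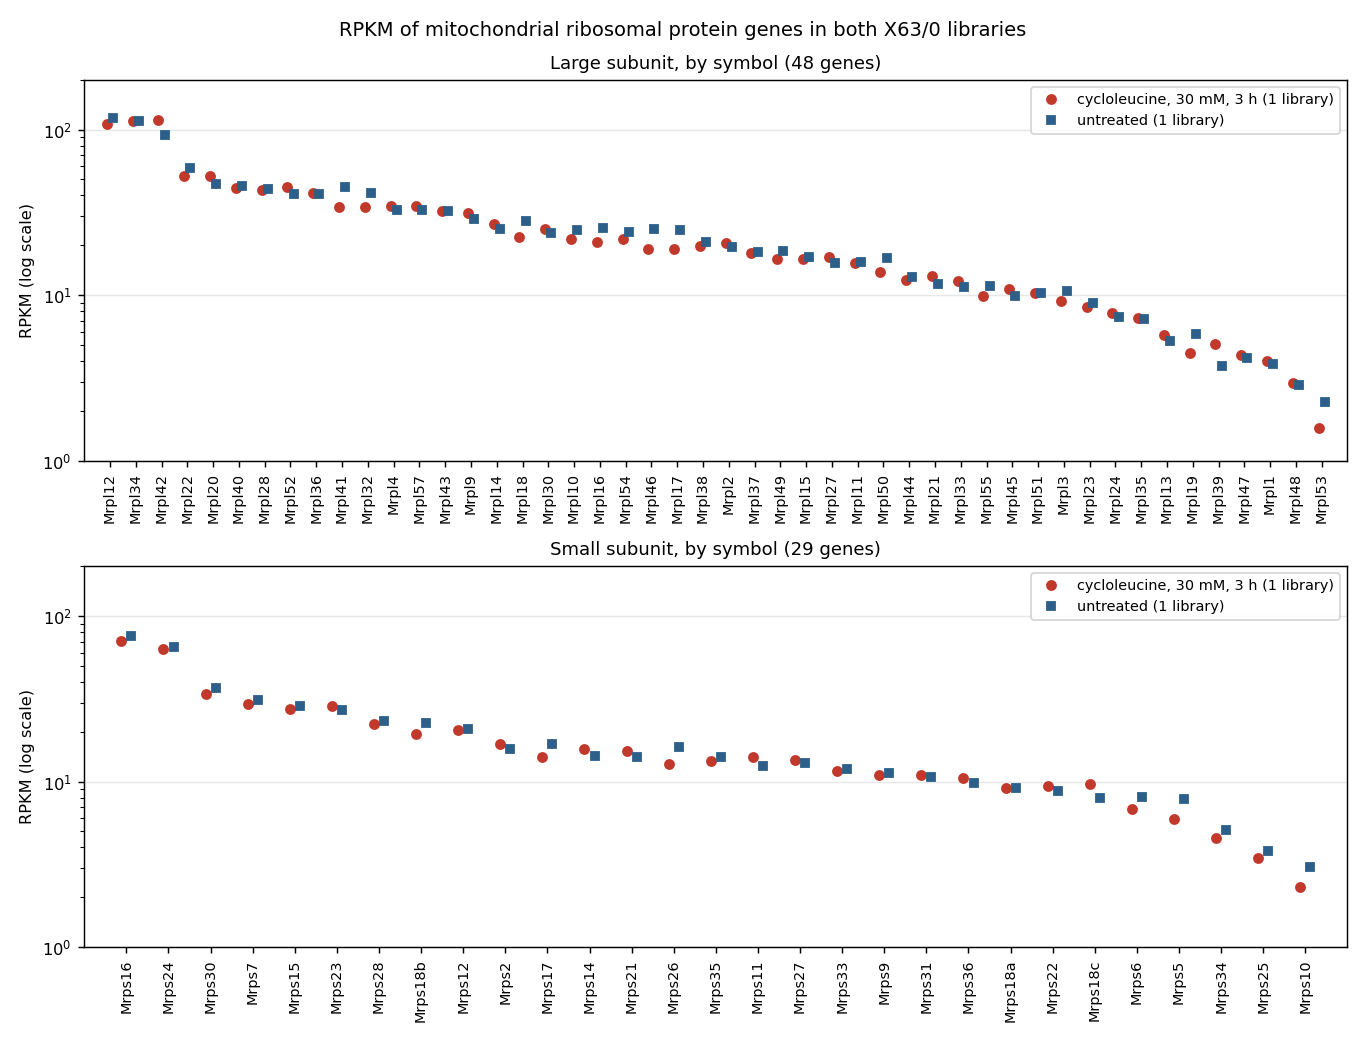
RPKM (log axis) of the 48 large subunit genes (top) and 29 small subunit genes (bottom), ordered by mean level, in the cycloleucine library (circles) and the untreated library (squares), 1 library each. The points of a gene lie close together beside the range across genes, and only Mrpl12, Mrpl34 and Mrpl42 exceed 100 RPKM.

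The mitochondrial ribosomal protein genes as a whole differed little between the libraries. Their median log2 fold change, cycloleucine over untreated, was -0.03 (quartiles -0.16 and 0.09), beside 0.0022 for all genes that passed (quartiles -0.12 and 0.13). Here a log2 fold change is taken on RPKM plus 0.1. Of the 77, 34 (44.2%) lay above 0, beside 50.6% of all genes that passed, and 43 lay below. Within 0.1 of 0 lay 34, a count without a share over all genes beside it. In bulk RNA, fewer cells of a type and less RNA per cell cannot be told apart.

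No member reached 1.5-fold: 0 of 77 were higher, beside 2.16% of all genes that passed, and 0 of 77 were lower, beside 1.87%. In either direction 4.03% of all genes reached that size. The whole range ran from -0.49 (Mrpl53) to 0.43 (Mrpl39). At a smaller size, a log2 fold change of 0.32, 1 member was higher, beside 8.44% of all genes, and 8 were lower, beside 7.08%. The exact 95% counting interval of the ratio lay above 0 for 12 members, beside 22.5% of all genes, and below 0 for 20 members, beside 21.1%. It held 0 for the remaining 45. These intervals cover counting error only. Variation between cultures or libraries is outside them, and PCR copies without molecular identifiers are not independent molecules.

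Summed over the 77 genes, exon reads were 98248 after cycloleucine and 86386 untreated. That was 0.307% (exact interval 0.306% to 0.309%) of gene reads after cycloleucine and 0.318% (0.316% to 0.321%) untreated, a log2 difference of -0.05. With uniquely placed reads over unique gene reads the shares were 0.418% after cycloleucine and 0.417% untreated, a log2 difference of 0.0030. The summed share was therefore lower after cycloleucine over all reads and nearly equal over unique reads. The change of library totals alone raises values from unique reads by 0.03. Over unique reads the median log2 fold change of all genes that passed was 0.0341, above the summed value of the members.

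Large and small subunit genes lay close together. The median log2 fold change was -0.02 for the 48 large subunit genes, 23 above 0 and 25 below, and -0.05 for the 29 small subunit genes, 11 above 0 and 18 below. Above 0 were thus 47.9% of the large and 37.9% of the small subunit genes, beside 50.6% of all genes that passed. The difference of the medians, large minus small, was 0.03. Per small subunit exon read there were 1.96 large subunit reads after cycloleucine and 1.92 untreated, a log2 change of 0.03 (counting interval 0.0019 to 0.06). The ratio of summed RPKM was 2.39 after cycloleucine and 2.36 untreated.

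Symbols do not always name the subunit. In solved structures Mrps30 and Mrps18a sit in the large subunit, and Mrps36 is now known as a component of the 2-oxoglutarate dehydrogenase complex. With genes placed this way the medians were -0.02 over 50 large subunit genes and -0.05 over 26 small subunit genes. Origin made little difference as well, with a median of -0.03 over 46 genes with a bacterial counterpart and -0.05 over 30 mitochondria-specific genes, with Mrps36 in neither set.

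**Figure D2:**
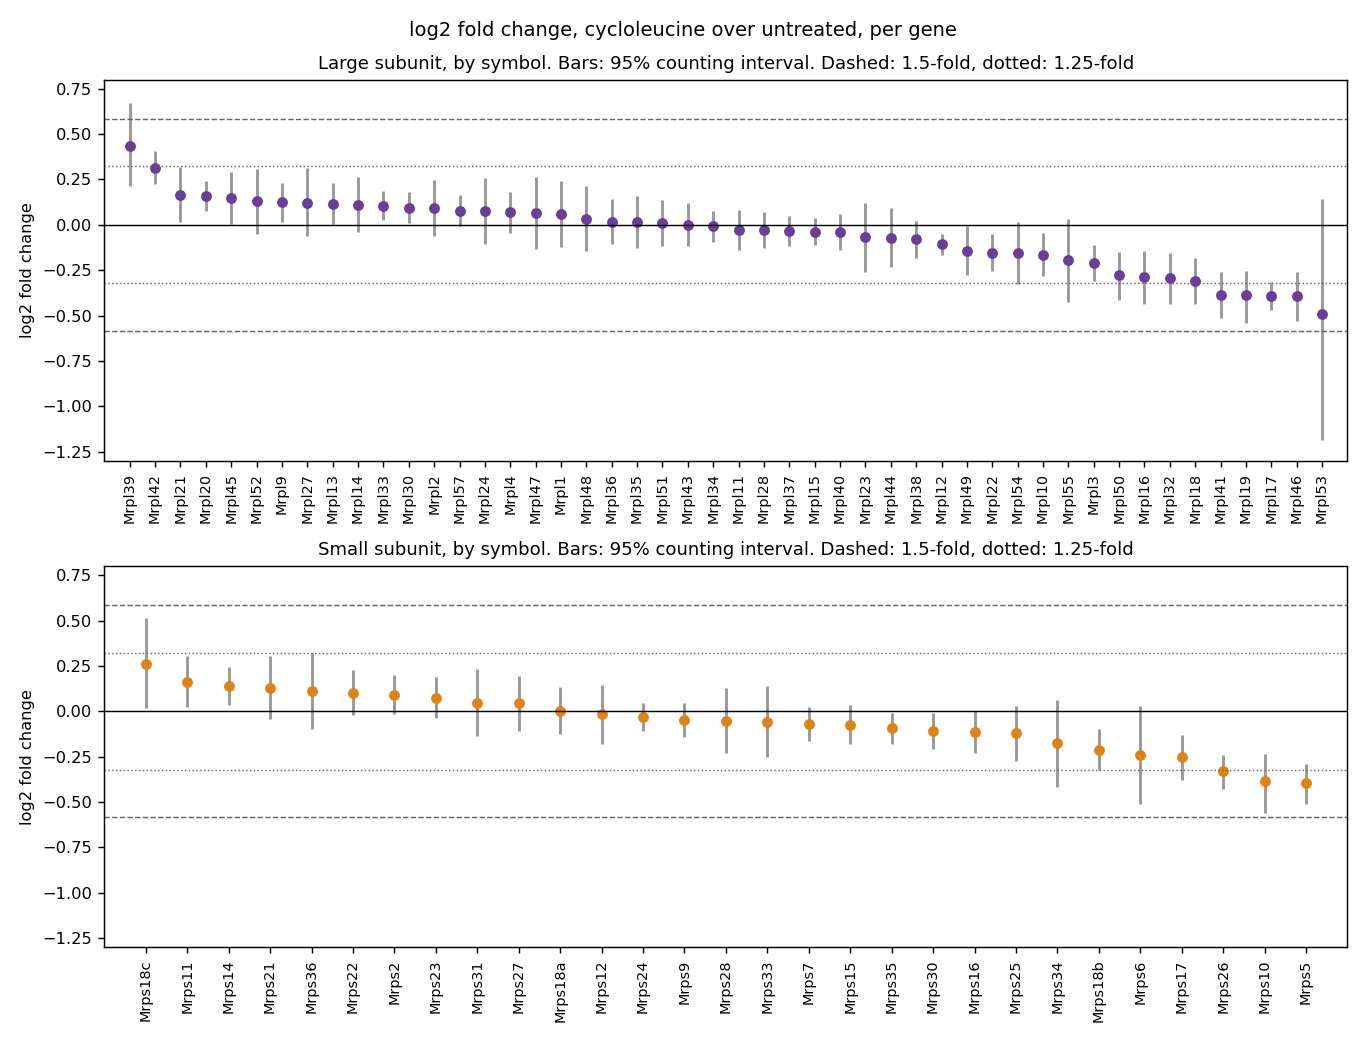
log2 fold change, cycloleucine over untreated, of each large subunit gene (top) and small subunit gene (bottom), with exact 95% counting intervals as bars, dashed lines at 1.5-fold and dotted lines at a log2 fold change of 0.32 either way. All points lie inside the dashed lines, and Mrpl39 is the only one above the upper dotted line.

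Among the higher genes, Mrpl39 led. This mitochondria-specific large subunit protein had 408 exon reads and 5.04 RPKM after cycloleucine, against 255 exon reads and 3.71 RPKM untreated. Its log2 fold change was 0.43 (0.21 to 0.67), with 0.47 from uniquely placed reads. The abundant Mrpl42 had 2444 exon reads after cycloleucine and 1669 untreated, a log2 fold change of 0.31 (0.22 to 0.40). Reads across its exon junctions were 784 after cycloleucine and 541 untreated, a log2 difference of 0.33, so both kinds of read gave a like value. Next came Mrpl21, Mrpl20, Mrpl45 and Mrpl52, at 0.17, 0.16, 0.15 and 0.13. Mrpl21 and Mrpl20 are counterparts of bacterial L21 and L20, Mrpl45 binds the ribosome to the inner membrane, and Mrpl52 is mitochondria-specific.

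In the small subunit Mrps18c was the highest. It is the mitochondrial form of bacterial S18 and had 330 exon reads and 9.60 RPKM after cycloleucine, against 233 exon reads and 7.98 RPKM untreated. Its log2 fold change was 0.26 (0.02 to 0.51). The paralogs of Mrps18c did not share that value. Mrps18a had 9.17 RPKM after cycloleucine and 9.15 RPKM untreated (log2 fold change 0.0028), and Mrps18b had 19.4 RPKM after cycloleucine and 22.5 RPKM untreated (-0.21). Fewer than 50% of the exon reads of Mrps18a and Mrps18b were uniquely placed, so their values are less certain. Mrps11, Mrps14, Mrps21, Mrps36 and Mrps22 followed Mrps18c, between 0.10 and 0.16.

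The lower genes included 4 of the large subunit with nearly equal values. Mrpl46, a mitochondria-specific protein, had 843 exon reads and 19.0 RPKM after cycloleucine, against 941 exon reads and 24.9 RPKM untreated, a log2 fold change of -0.39 (-0.53 to -0.26). Mrpl19, a counterpart of bacterial L19, had 773 exon reads after cycloleucine and 864 untreated, again -0.39 (-0.54 to -0.26). Mrpl17, a counterpart of bacterial L17, had 2513 and 2802 exon reads in these libraries and -0.39, but 18.3% of its exon reads were unique, all of them across junctions, and those gave -0.29. Mrpl41, mitochondria-specific, had 34.2 RPKM after cycloleucine and 44.7 RPKM untreated, a log2 fold change of -0.38 (-0.51 to -0.26).

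The numerically lowest value, -0.49 for Mrpl53, rested on 37 exon reads after cycloleucine and 45 untreated. Its counting interval was -1.19 to 0.14. Of these reads 0% were uniquely placed, and its whole model lies within that of Ccdc142. Mrpl18, whose bacterial counterpart binds 5S ribosomal RNA, had 1008 exon reads after cycloleucine and 1061 untreated, a log2 fold change of -0.31. Its junction reads went the other way, 246 after cycloleucine and 175 untreated, a log2 difference of 0.29. Mrpl18 overlaps Tcp1, a chaperonin subunit gene with 13321 exon reads after cycloleucine and 11769 untreated, by 645 bp.

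The lowest small subunit genes were Mrps5, Mrps10 and Mrps26. Mrps5, the counterpart of bacterial S5 near the decoding region, had 1254 exon reads and 5.97 RPKM after cycloleucine, against 1404 exon reads and 7.87 RPKM untreated. Its log2 fold change was -0.39 (-0.51 to -0.29), and -0.29 from uniquely placed reads and from junction reads. Mrps10 had 593 exon reads after cycloleucine and 664 untreated, a log2 fold change of -0.38. Mrps26, mitochondria-specific, had 12.8 RPKM after cycloleucine and 16.2 RPKM untreated, with -0.33. Mrps17, Mrps6 and Mrps18b came next, at -0.25, -0.24 and -0.21.

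By region of the ribosome, the stalk genes Mrpl10, Mrpl11 and Mrpl12 were all below 0 over all exon reads, at -0.17, -0.03 and -0.11. From uniquely placed reads these genes were at -0.07, 0.01 and -0.05, and each of those counting intervals held 0. The change of library totals alone raises such values by 0.03, and their median over all genes that passed was 0.0341. The interval of Mrpl12, -0.125 to 0.026, lay below that median. The values that follow are over all exon reads. Around the exit of the peptide tunnel, Mrpl22 and Mrpl23 were at -0.15 and -0.07, while Mrpl24, Mrpl45 and Mrpl47 were at 0.08, 0.15 and 0.06. Of the decoding region, Mrps5 was at -0.39 and Mrps11 at 0.16, with Mrps7 at -0.07 and Mrps12, the counterpart of the bacterial streptomycin target S12, at -0.02.

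Mrpl46 and Mrps11 lie head to head on chromosome 7. Per RefSeq (GRCm38.p6), Mrpl46 starts at 78783089 on the minus strand and Mrps11 at 78783131 on the plus strand, 42 bp apart. Mrps11 had 970 exon reads after cycloleucine and 735 untreated, a log2 fold change of 0.16 (0.02 to 0.30), while Mrpl46 was at -0.39. From uniquely placed reads the values were 0.19 for Mrps11 and -0.35 for Mrpl46. The counting intervals of the neighbours did not overlap. In the deposited gene models both overlap by 413 bp, and no source used here says whether reads were counted by strand, so reads of the shared stretch may not be separated. The sequence from 250 bases before to 50 bases after the Mrps11 start is shown because it holds both starts, Mrpl46 at base 209 and Mrps11 at base 251. It is the plus strand of chr7:78782881-78783180, and capitals mark a match to a YY1 motif, described next.
Mrps11 and Mrpl46: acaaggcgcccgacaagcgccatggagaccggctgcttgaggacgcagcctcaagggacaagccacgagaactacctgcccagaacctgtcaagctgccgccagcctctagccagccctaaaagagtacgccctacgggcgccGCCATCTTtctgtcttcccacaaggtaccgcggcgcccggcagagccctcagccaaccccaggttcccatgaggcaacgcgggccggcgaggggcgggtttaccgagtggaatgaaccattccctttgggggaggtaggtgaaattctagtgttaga

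The promoters of nuclear genes for mitochondrial proteins are known to carry sites for ETS factors such as NRF2, for NRF1 and for YY1. RefSeq promoter windows of 300 bases (GRCm38.p6, 250 before and 50 after the start) were matched for 68 of the 77 members, 42 large and 26 small. Each motif was searched as exact letters on both strands. The YY1 motif AAGATGGC was in 17.6% of the members (12 of 68), beside 6.41% of the genes that passed the filter and 3.19% of all genes with a window. The ETS motif CCGGAAG was in 36.8% of the members (25 of 68), beside 24.5% of the genes that passed and 9.93% of all genes. The NRF1 motif GCGCATGCG was in 10.3% of the members (7 of 68), beside 5.05% and 1.95% in the same order. Of the 68 members, 37 held at least 1 of these 3 motifs, a count without a share over all genes beside it.

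Other promoter elements had shares in the members near to or below those among genes that passed the filter. The E-box CACGTG was in 7.35% of members and 12.7% of genes that passed. The CCAAT box was in 39.7% and 44.3%, and TATAAA was in 7.35% and 7.24%. These shares are descriptions, the motifs were chosen with earlier results of these data known, and a match is not evidence that a factor binds. No motif contains the letters of another, and a window could hold several.

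YY1 matches are shown because their placement recurs among the members. The placement of this motif in other genes is not given here, so it is not called particular to the members. Of the 12 matches, 8 read forward, all downstream of the annotated start, and in 6 of the 8 the ATG inside the motif is the annotated start codon of the gene in GENCODE M21. The other 4 read in reverse and lie upstream of the start of the gene they are listed under. The Mrps11 match among them also lies downstream of the start of the neighbour Mrpl46, and on the Mrpl46 strand it reads forward. That position is past the end of the Mrpl46 promoter window, so Mrpl46 is counted as a member without a match. Lines give the gene strand, with the motif in capitals and up to 12 flanking bases on each side.
Mrpl32, chr13:14613260-14613287 (minus strand): cgcgctctGCCATCTTtacccggaaagt
Mrpl35, chr6:71823742-71823773 (minus strand): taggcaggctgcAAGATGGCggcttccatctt
Mrpl36, chr13:73330967-73330998 (plus strand): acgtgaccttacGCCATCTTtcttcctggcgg
Mrpl37, chr4:107066821-107066852 (minus strand): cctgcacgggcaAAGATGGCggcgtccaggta
Mrpl42, chr10:95501903-95501934 (minus strand): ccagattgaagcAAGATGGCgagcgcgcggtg
Mrpl49, chr19:6057720-6057751 (minus strand): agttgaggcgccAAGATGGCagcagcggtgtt
Mrps11, chr7:78783012-78783043 (plus strand): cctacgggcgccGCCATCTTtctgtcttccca
Mrps18a, chr17:46111003-46111034 (plus strand): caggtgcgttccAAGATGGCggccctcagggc
Mrps24, chr11:5707652-5707677 (minus strand): tcgcgccggcccAAGATGGCgtggtc
Mrps27, chr13:99344788-99344819 (plus strand): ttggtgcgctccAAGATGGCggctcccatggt
Mrps7, chr11:115604146-115604177 (plus strand): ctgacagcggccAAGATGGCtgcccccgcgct

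The forward matches with the start codon belong to Mrpl35, Mrpl49, Mrps7, Mrps18a, Mrps24 and Mrps27. Members with a YY1 match had a median log2 fold change of -0.0070, from -0.29 (Mrpl32) to 0.31 (Mrpl42), and members without one had -0.03. Members with an ETS match had a median of 0.0028, and those without had -0.03. The 7 members with an NRF1 match had a median of -0.17 and ran from -0.39 (Mrpl17) to 0.43 (Mrpl39), and those without had a median of -0.0090. These medians are over all exon reads. From uniquely placed reads the 7 were at -0.07 (Mrpl10), -0.29 (Mrpl17), 0.03 (Mrpl22), -0.21 (Mrpl32), 0.47 (Mrpl39), 0.15 (Mrpl9) and -0.09 (Mrps18b).

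The choice between all and uniquely placed reads changed the value of some members. Fewer than 50% of exon reads were uniquely placed in 9 of the 77 genes, and at least 95% in 44. Shares over all genes are not given for these counts. Of the 9, 5 lie wholly inside another gene model: Mrpl2, Mrpl17, Mrpl40, Mrpl53 and Mrps34. In 4 of these all unique exon reads were junction reads, and Mrpl53 had no unique read. The other 4 of the 9 are Mrpl23, Mrps18a, Mrps18b and Mrps36, and pseudogene copies of Mrpl23 and Mrps36 are among the features. Those of Mrps36 held few reads, 3 in each library for Mrps36-ps1. Mrps36-ps2 had 2 after cycloleucine and 4 untreated. The value of Mrps36 turned most on the choice of reads. Over all exon reads it had 429 after cycloleucine and 337 untreated, a log2 fold change of 0.11. Its uniquely placed exon reads were 186 after cycloleucine and 108 untreated, a log2 fold change of 0.57 (0.23 to 0.94). Its unique junction reads were 143 after cycloleucine and 63 untreated, a log2 difference of 0.98 (0.54 to 1.43). For unique exon reads, 2.21% of all genes were at least 1.5-fold higher and 1.28% lower, and for junction reads 5.57% were higher and 3.76% lower.

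Mrpl27, a protein near the site of peptide bond formation, had a log2 fold change of 0.12 over all exon reads and 0.37 over unique reads. Mrpl22 was at -0.15 over all and at 0.03 over unique exon reads. In 10 of the 77 genes the sign differed between all and unique reads, although Mrpl53 is among these only because it had no unique read. The library totals used for scaling also differed, which alone raised values from unique reads by 0.03. Mrpl34, for example, went from -0.0090 to 0.03 although 99.6% of its exon reads were unique. The share of such genes among all genes is not given here. The processed copy Mrpl23-ps1 held 903 reads after cycloleucine and 631 untreated, 9.84% of them unique, while Mrpl23 itself had 484 exon reads after cycloleucine and 431 untreated, 12.3% of them unique. The value of Mrpl23 is therefore uncertain.

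**Figure D3:**
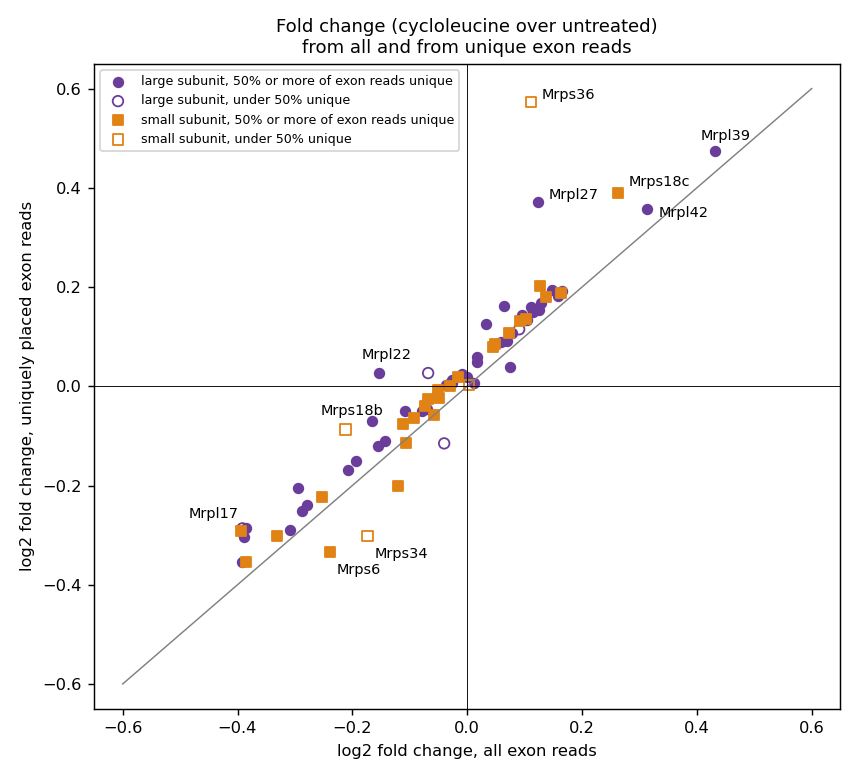
log2 fold change, cycloleucine over untreated, from all exon reads (x axis) and from uniquely placed exon reads (y axis) for members with unique reads, circles for large and squares for small subunit genes, open where fewer than 50% of exon reads are unique. Most points lie near the diagonal line of equal values, and Mrps36 stands furthest from it, at 0.11 and 0.57.

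Reads across exon junctions could be compared for 75 members, since Mrpl53 had none and Mrpl23 had under 50 over both libraries. At least 1.5-fold higher were 2 (2.67%), Mrpl27 and Mrps36, beside 5.57% of all genes compared. At least 1.5-fold lower were 4 (5.33%), Mrpl50, Mrpl55, Mrps33 and Mrps6, beside 3.76%. Mrps33, mitochondria-specific, had 18 junction reads after cycloleucine and 49 untreated, a log2 difference of -1.65 (-2.51 to -0.84), while its exon reads were 455 after cycloleucine and 402 untreated, a log2 fold change of -0.06. Mrps6, the counterpart of bacterial S6, had 19 junction reads after cycloleucine and 40 untreated (-1.28). In the other direction, Mrps16 had 251 junction reads after cycloleucine and 158 untreated (0.47) beside an exon log2 fold change of -0.11. Mrpl35 had 226 and 134 junction reads in the cycloleucine and untreated library (0.55) beside 0.02 for exon reads. Exon and junction reads differed in sign in 20 of the 75 members, and the share over all genes is not given here. Junction reads were scaled by unique gene reads and exon reads by all gene reads. That alone shifts values by 0.03, enough to change the sign of values near 0.

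Intron reads come mostly from RNA that is not yet spliced, so the ratio of intron to exon reads gives another view of each gene. Members held few of them. The median intron share of gene reads over the 77 genes was 5.17% after cycloleucine and 4.47% untreated, beside 13.6% after cycloleucine and 13.5% untreated for the 9081 genes that passed the filter. In 38 members, 20 large and 18 small, a comparison was made, since they had at least 100 reads in introns and 200 in exons, summed over the libraries. The median log2 change of the ratio was 0.03 over these 38, beside 0.02 over 6803 genes with as many reads.

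Here the subunits lay on different sides of 0. The small subunit genes had a median change of 0.18, with 14 (77.8%) above 0 and 4 below. The large subunit genes had a median of -0.08, with 7 (35%) above 0 and 13 below. Of the 6803 genes compared, 52.9% were above 0. Summed intron reads of the small subunit were 5516 after cycloleucine and 4547 untreated, a log2 difference of 0.04 (-0.01 to 0.10). The single gene Mrps28 held 2288 and 1916 of these, in the same order. Summed intron reads of the large subunit were 3598 after cycloleucine and 3374 untreated, a log2 difference of -0.14 (-0.21 to -0.08). All annotated genes together had 10630222 intron reads after cycloleucine and 9521589 untreated, a smaller share of gene reads after cycloleucine. For these sums 0 is therefore not the level of all genes. With 1 library per group this contrast was not tested, and most single intervals held 0.

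At least 1.5-fold higher ratios were found in 4 of 38 members, beside 5.16% of the genes compared, and at least 1.5-fold lower ones in 2 of 38, beside 3.51%. Mrpl14, the counterpart of bacterial L14 that faces the small subunit, had 74 intron reads after cycloleucine and 30 untreated, a ratio change of 0.94 (0.30 to 1.64). Mrps16 had 80 intron reads after cycloleucine and 46 untreated (0.67), and Mrps30 had 85 and 50 in the same libraries (0.63). Mrpl38, mitochondria-specific, had 77 intron reads after cycloleucine and 45 untreated (0.61). The lowest was Mrpl57, a small mitochondria-specific protein, with 83 intron reads after cycloleucine and 137 untreated, a ratio change of -1.03 (-1.46 to -0.62). Mrpl42 had 211 intron reads after cycloleucine and 237 untreated, and with its higher exon reads the ratio change was -0.72 (-1.01 to -0.43). Mrpl20 was the third lowest at -0.53.

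Intron reads were unevenly spread over the members. Mrps28 spans 122 kb and had 2288 intron reads beside 557 exon reads after cycloleucine, and 1916 beside 490 untreated, so introns held 80.4% of its reads after cycloleucine and 79.6% untreated. Its ratio change was 0.07. Mrps6 had 211 intron reads after cycloleucine and 256 untreated. Its model overlaps Slc5a3 and Gm16310, each with 0 exon reads in both libraries. Mrpl11 had 14 intron reads after cycloleucine and 44 untreated, and Mrps36 had 44 and 11, both below the minimum for a comparison.

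**Figure D4:**
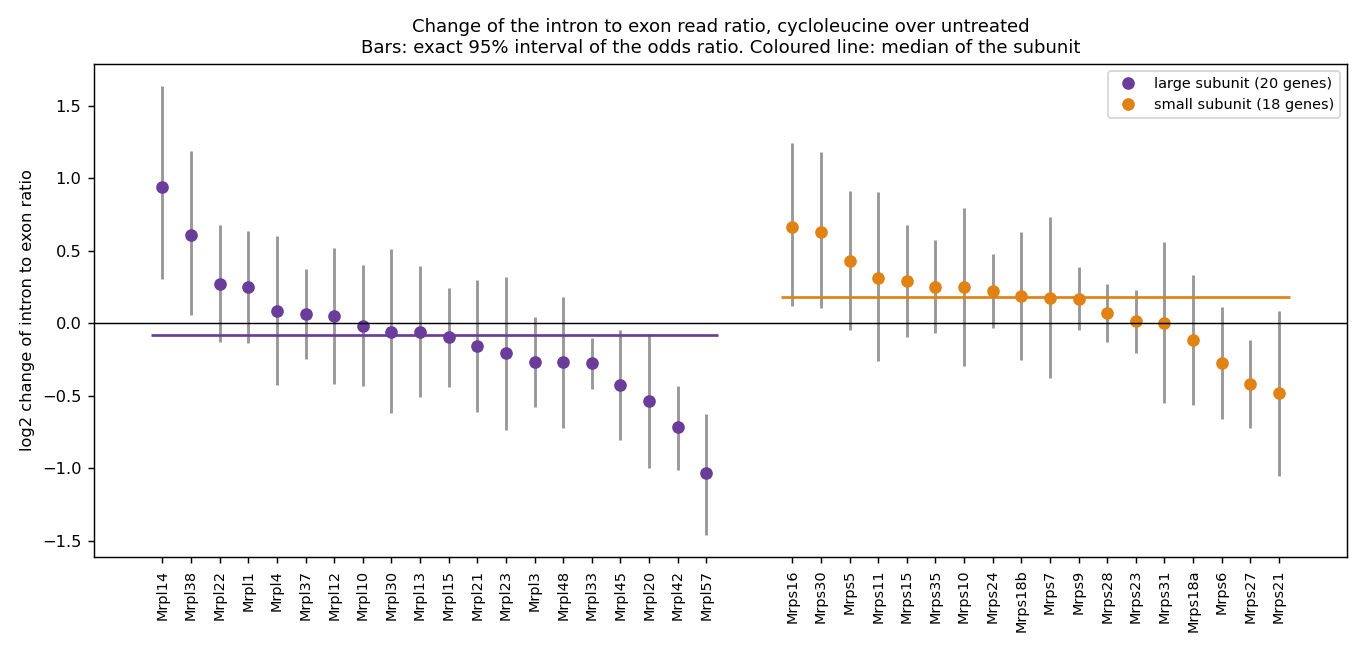
log2 change of the intron to exon read ratio, cycloleucine over untreated, for 20 large and 18 small subunit genes, with exact 95% intervals of the odds ratio as bars and the subunit median as a coloured line. The medians lie at -0.08 and 0.18, and Mrpl57 is the lowest point at -1.03.

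Members share the mitochondrial ribosome with other nuclear-encoded proteins, for which the same measure was taken. Proteins of the ribosome under other symbols had a median log2 fold change of -0.0054 over 6 genes, 3 of them above 0. The largest were Ptcd3 (-0.26) and Gadd45gip1 (-0.18), and Aurkaip1 was at 0.18. Factors that assemble the ribosome had a median of -0.08 over 23 of 25 listed genes. Of these, 1 reached 1.5-fold, Mterf4, which brings an RNA methyltransferase to the large subunit, with 4.10 RPKM after cycloleucine and 2.57 RPKM untreated (0.66). Ftsj2 and Rnmtl1, which methylate the large ribosomal RNA of mitochondria, were at 0.42 and -0.42.

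Factors of mitochondrial translation had a median of -0.03 over 16 genes. Again 1 reached 1.5-fold, the initiation factor Mtif3, with 3.46 RPKM after cycloleucine and 2.19 RPKM untreated (0.64). The other initiation factor, Mtif2, had 4.17 RPKM after cycloleucine and 5.54 RPKM untreated (-0.40), and the membrane insertase gene Oxa1l had 0.33.

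The median log2 fold change of the mitochondrial ribosomal protein genes lay below those of the cytosolic ribosome and the respiratory chain in these libraries. Cytosolic ribosomal protein genes had a median of 0.09 over 83 genes, 66 of them above 0. Nuclear genes of the respiratory chain also had 0.09, over 78 genes with 62 above 0. The 13 protein genes of mitochondrial DNA, which mitochondrial ribosomes translate, had 0.33, with 11 above 0. Among all genes that passed, 50.6% were above 0. These medians are differences of levels within 1 pair of libraries, and the contrast between the groups was not tested.

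**Figure D5:**
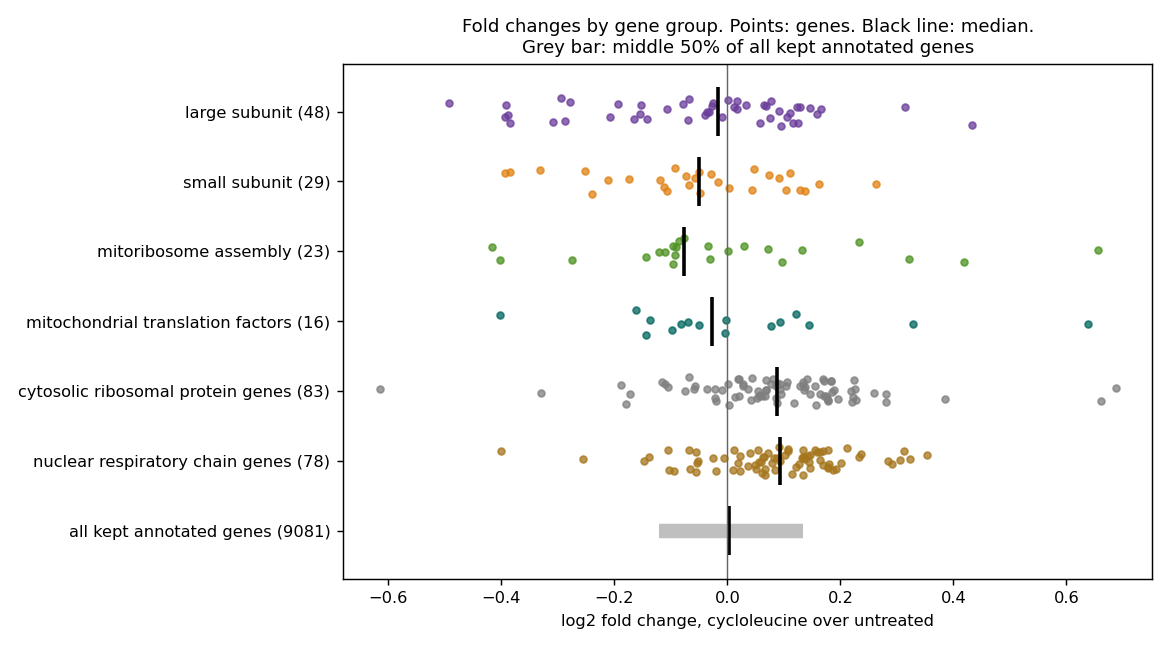
log2 fold change, cycloleucine over untreated (x axis), of single genes (points) in 6 gene groups, with medians as black lines and the middle 50% of all 9081 genes that passed the filter as a grey bar. The medians of both subunits are -0.02 and -0.05, and those of the cytosolic ribosome and the respiratory chain are both 0.09.

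Members were spread over 17 chromosomes, with 10 on chromosome 11, 8 on chromosome 17 and 7 on chromosome 6. Another annotated gene overlapped 30 of the 77, a count not set against all genes. The log2 fold change had no clear relation to exon length (rho of -0.01), GC content (-0.15) or level (0.0037) over the 77 genes, all descriptions within 1 pair of libraries.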

How the data were processed

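RNA-seq of 2 libraries, 1 per group, was used. The authors deposited read counts per gene (total and uniquely placed, over genes, exons, introns and junctions, per the file headers) and RPKM values. The RPKM of 77 of 77 members in each library followed from exon reads, exon length and total gene reads, within a share of 0.0001. Coordinates are on mm10, which the submitters' processing notes name. The aligner, the counter, the annotation and any use of strand are not stated in the labels. The table had 0 columns of other samples. The design text speaks of a triplicated experiment, and replicate libraries beyond these 2 are not analysed here.

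From the deposited RPKM, log2 fold changes were computed with 0.1 added, which understates the change of low genes. Counting intervals are exact 95% Clopper-Pearson intervals for the part of each gene's reads that came from cycloleucine cells, rescaled by the total gene reads of both libraries, without the added value. Intron ratios had 0.5 added to each count. Uniquely placed reads made up 63.0% of gene reads after cycloleucine and 64.5% untreated. Exon reads made up 49.4% and 48.4% in the same order. Python 3.11.15, pandas 2.3.3, numpy 2.4.6, scipy 1.17.1 and matplotlib 3.10.9 were used, and the interval code was tested on simulated data. GC content came from GENCODE M21 transcripts and promoters from RefSeq. Alternatives were another pseudocount, other filters, unique reads, other scalings, other fold sizes and subunits placed by structure.

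Members and gene lists were chosen with earlier results of these data known. Any member could be named. Values were given for the 6 highest and 6 lowest fold changes and the 5 highest and 5 lowest levels of each subunit, the 3 highest and 3 lowest intron ratio changes, the Mrps18 paralogs, Mrps30, Mrps36, the stalk, exit and decoding genes, and up to 3 genes of each other list. Members named for junction reads, unique reads, gene copies, motif matches or few intron reads were picked after their values were seen. One promoter sequence and the values of 1 marker gene are not reported here.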

Additional observations from a re-analysis of the deposited data

How the results depend on the processing

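No paired analysis was possible because there was 1 library in each group. At a log2 size of 0.32 in place of 1.5-fold, 1 member was higher and 8 were lower. The summed exon share changed with its denominator. With uniquely placed reads its log2 difference was 0.0030 for all members, 0.0195 for the large and -0.0277 for the small subunit, and over total exon reads it was -0.0809, -0.0707 and -0.10 for the same sets. The large subunit is thus on either side of 0. Of 72 summary values under other settings, 64 were labelled the same as the main value and 8 as moved. Those that moved were the summed exon shares with another denominator and the counts of members at a log2 size of 0.32. Medians over genes have no counting interval here, so their label is not a check against counting error. Medians near 0 crossed it. With unique reads that of all members was 0.0061 and that of the large subunit 0.0251. The median of all genes that passed also rose with unique reads, from 0.0022 to 0.0341. Both medians of members thus stayed below that of all genes. With the trend in GC content removed, an alternative added after seeing the data, the median of the large subunit was 0.0029. Of 531 values of single members under other settings, 525 stayed inside their counting interval and 6 did not. Most of these values could hardly move, so the count is not a check of stability. Other filters leave the value of a single gene unchanged, and the rescalings shift all values by 0.0022 or 3.4e-06. With unique reads, 6 values moved and 70 did not. The 6 were Mrpl12 at -0.05, Mrpl17 at -0.29, Mrpl22 at 0.03, Mrpl27 at 0.37, Mrps18b at -0.09 and Mrps36 at 0.57. The intron ratio medians stayed between 0.17 and 0.19 for the small subunit and between -0.09 and -0.06 for the large subunit under all alternatives run. With 1 library per group, variation between cultures is unknown, and counts under about 100 reads left wide intervals, as for Mrpl53.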
